A study of Homo sapiens with 8 samples.

Results

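IKAROS and AIOLOS were compared site by site in 697, a human cell line grown from pre-B leukaemia, by asking how high the peaks of each factor stood where the factors lay together. ChIP-seq, which sequences the DNA that an antibody brings down with its protein, was done with 1 library for each of 7 antibodies, against IKAROS, AIOLOS, MTA2, Mi2, HDAC2, OCT2 and OCAB, and the series also holds 1 input library of genomic DNA taken without antibody. All 8 libraries came from suspension cultures of this 1 line, and the labels name no treatment. An IKAROS and an AIOLOS peak that overlapped by at least 1 bp made a pair, and 32728 pairs were found, among 74123 regions that the merged peaks of all 7 lists cover. Peak height is the deposited number of tags in a peak per 10 M tags of the library. Each peak was given a percentile rank by height within its own list, and pairs were sorted by the IKAROS rank minus the AIOLOS rank. A pair was called leaning to IKAROS where this difference was above 25 points (5941 pairs), leaning to AIOLOS where it was below -25 points (268 pairs), and balanced in between (26519 pairs).

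IKAROS (encoded by IKZF1) and AIOLOS (IKZF3) are zinc-finger transcription factors of lymphocytes that recognise related DNA sequences and can form dimers with themselves and with each other. Both are known to bind NuRD, a complex in which Mi2 is the nucleosome remodelling ATPase, HDAC2 a histone deacetylase and MTA2 a scaffold subunit. AIOLOS is known to rise at the pre-B stage, where the family restrains proliferation downstream of the pre-B receptor. OCT2 is a transcription factor that recognises the octamer, and OCAB is a coactivator it recruits in B cells.

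The groups were chosen by the heights of IKAROS and AIOLOS, so these are given as a description. IKAROS peaks of pairs leaning to IKAROS had a median height of 25.2 (quartiles 20.1 and 32.9), and their AIOLOS peaks a median of 14.9 (12.4 and 18.7). In pairs leaning to AIOLOS the IKAROS median was 13.7 (11.5 and 17.5) and the AIOLOS median 33.0 (26.1 and 43.8). Balanced pairs had medians of 35.5 for IKAROS and 29.9 for AIOLOS. The leaning pairs were thus sites of low to middling height. Their IKAROS heights reached at most 82.5 and their AIOLOS heights at most 115.8, while balanced pairs reached 4438.5 and 4889.7. The ratio of IKAROS to AIOLOS height had a median of 1.65 in pairs leaning to IKAROS, 1.15 in balanced pairs and 0.425 in pairs leaning to AIOLOS.

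Among all pairs, 18.2% leaned to IKAROS and 0.819% to AIOLOS, but this imbalance followed from the lists over which ranks were taken. The IKAROS list holds 53948 peaks, of which 60.7% were paired, and the AIOLOS list 38101 peaks, of which 85.9% were paired. The lists ended at unlike limits, with deposited p-values over input of up to 8.32e-10 for IKAROS and 9.53e-11 for AIOLOS. Unpaired peaks were low, with a median rank of 23.2 in the IKAROS list and 27.2 in the AIOLOS list. The longer unpaired tail of IKAROS lifts the ranks of its paired peaks, to a median of 67.9 against 54.4 for AIOLOS, and the rank difference had a median of 9.75 points. With ranks taken among the paired peaks alone, 1109 pairs leaned to IKAROS and 1471 to AIOLOS. All 1109 were among the 5941, and 267 of the 268 pairs leaning to AIOLOS were among the 1471. A rank difference therefore places a site within each list and does not measure how much of either factor was bound.

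**Figure D1:**
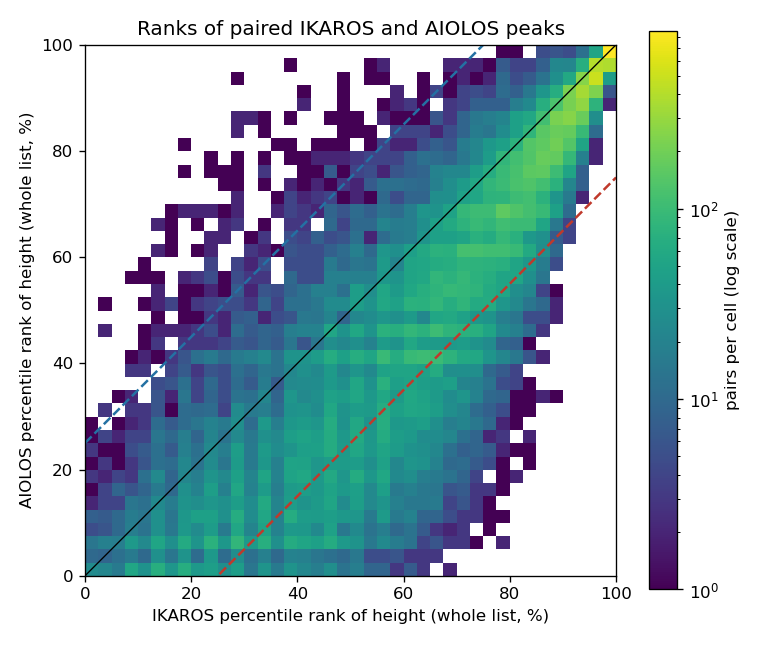
Number of pairs (colour, log scale) by the percentile rank of the IKAROS peak (x, %) and of the AIOLOS peak (y, %), each within its whole list. The solid line marks equal ranks and the dashed lines a difference of 25 points; most pairs sit below the solid line (median difference 9.75 points), and the highest pairs close up on it at the top right.

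The depth behind a pair was modest, as the 23.4 M tags of the IKAROS library and the 16.1 M of the AIOLOS library left few tags in low peaks. Pairs leaning to IKAROS had a median of 59 IKAROS and 24 AIOLOS tags, and pairs leaning to AIOLOS had 32 and 53. For each pair, the exact binomial 95% interval of the IKAROS share of its tags was set against the share that peaks of equal rank would give. The interval lay beyond that share, towards the leaning factor, in 5183 of the 5941 pairs leaning to IKAROS (37.9% of all pairs lay beyond it in that direction) and in 243 of the 268 leaning to AIOLOS (2.87% of all pairs in that direction). The rule used the same tags, so these counts only say how many calls were larger than counting error. No antibody had a replicate library, and the spread between libraries is unknown. Intervals here and below cover counting error only, on PCR-amplified reads without molecular identifiers.

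The other proteins took no part in sorting the pairs. HDAC2, OCT2 and MTA2 differed between the leaning groups beyond counting error. HDAC2 was found at 21.6% of pairs leaning to IKAROS (Wilson 95% interval 20.6 to 22.6) and at 9.70% of pairs leaning to AIOLOS (6.71 to 13.8), or 26 of 268. OCT2 was found at 11.1% of pairs leaning to IKAROS (10.3 to 11.9) and at 1.87% of those leaning to AIOLOS (0.799 to 4.29), which is 5 pairs of 268. The differences were 11.9 percentage points for HDAC2 (Newcombe 95% interval 7.62 to 15.1) and 9.23 points for OCT2 (6.68 to 10.6). With peaks of all lists held to a p-value over input of at most 1e-20, they shrank to 1.67 points for HDAC2 (0.109 to 2.27) and 4.50 points for OCT2 (2.36 to 5.67). The shares fell too. HDAC2 was then at 1.996% of pairs leaning to IKAROS, 0.327% of those leaning to AIOLOS and 5.61% of balanced pairs. OCT2 was at 5.805% and 1.307% of the leaning groups. The groups also changed, as 96 of the 306 pairs then leaning to AIOLOS were among the 268. Without this limit, balanced pairs, which include the highest sites, held more of both, with HDAC2 at 33.8% (33.2 to 34.4) and OCT2 at 18.4% (17.9 to 18.9).

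MTA2, the NuRD scaffold, went the other way with these ranks, but not with ranks among paired peaks alone or of fold over input. It was found at 57.1% of pairs leaning to AIOLOS (51.1 to 62.9), at 45.8% of pairs leaning to IKAROS (44.6 to 47.1) and at 59.4% of balanced pairs (58.8 to 60.0). The difference between the leaning groups was -11.3 points, IKAROS minus AIOLOS (-17.2 to -5.15). Its direction depended on how pairs were ranked: with ranks among the paired peaks alone it was 4.85 points (0.964 to 8.71), as MTA2 lay at 56.4% of the 1109 pairs leaning to IKAROS and 51.6% of the 1471 leaning to AIOLOS. With ranks of fold over input in place of height it was 10.7 points (7.84 to 13.6). HDAC2 and OCT2 kept their direction under both, with 15.4 and 11.8 points for ranks among paired peaks and 13.2 and 7.44 points for ranks of fold over input.

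Mi2, the remodelling ATPase, lay at 8.08% of pairs leaning to IKAROS (7.41 to 8.80) and 5.22% of pairs leaning to AIOLOS (3.14 to 8.58), and the interval of the difference included 0 (2.86 points, -0.562 to 5.06). It lay above 0 with ranks among the paired peaks alone (4.91 points, 2.79 to 7.13), with ranks of fold over input (3.90 points, 2.32 to 5.33) and with at least 30 tags in each peak (5.44 points, 0.623 to 8.49). It included 0 at a rank limit of 40 points (0.611 points, -8.70 to 5.33) and with peak centres within 100 bp (0.718 points, -2.71 to 2.43). The same held at a p-value over input of at most 1e-20 (2.07 points, -0.372 to 3.47). OCAB lay at 4.28% (3.79 to 4.82) and 4.10% (2.31 to 7.20), a difference of 0.171 points (-2.96 to 2.05). For OCAB the interval allows a difference of up to 2.96 points towards AIOLOS, so equality is not shown.

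**Figure D2:**
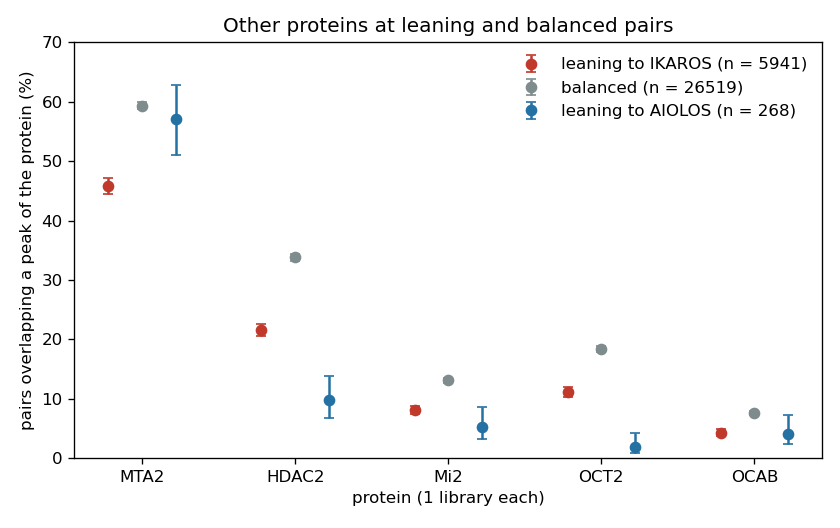
Share of pairs (y, %) that overlap a peak of each protein (x), for pairs leaning to IKAROS, balanced pairs and pairs leaning to AIOLOS; bars are Wilson 95% intervals of counting error. HDAC2 (21.6% against 9.70%) and OCT2 (11.1% against 1.87%) were lower at pairs leaning to AIOLOS than at pairs leaning to IKAROS, while MTA2 was higher (57.1% against 45.8%), an order that turned around with ranks among paired peaks alone or of fold over input.

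MTA2 at pairs leaning to AIOLOS mostly stood without the other mapped proteins. Of the 268 pairs, 43.3% (37.5 to 49.3) held MTA2 and none of HDAC2, Mi2, OCT2 and OCAB, against 23.6% (22.6 to 24.7) of pairs leaning to IKAROS and 23.1% (22.6 to 23.6) of balanced pairs. Among pairs that held MTA2, HDAC2 was present at 12.4% of those leaning to AIOLOS (8.10 to 18.6, n = 153), 33.4% of those leaning to IKAROS (31.6 to 35.2, n = 2722) and 48.6% of balanced pairs (47.8 to 49.4, n = 15743). OCT2 was present at 3.27% (5 of 153), 18.6% (17.2 to 20.1) and 27.6% (26.9 to 28.3) of the same pairs. The differences between the leaning groups, given MTA2, were 21.0 points for HDAC2 (14.6 to 25.7) and 15.4 points for OCT2 (11.0 to 17.8). All 3 NuRD subunits were found at 2 of the 268 pairs leaning to AIOLOS (0.746%, 0.205 to 2.68), at 2.91% of pairs leaning to IKAROS (2.51 to 3.37) and at 7.81% of balanced pairs (7.50 to 8.14). HDAC2 had the shallowest library of the series (10.9 M tags), so a site without an HDAC2 peak may hold it below detection. Its list also reached weaker peaks, with deposited p-values over input of up to 9.5e-05, against 9.98e-11 in the MTA2 list. Shares of HDAC2 and MTA2 thus rest on unlike limits. The OCT2 list reached 8.92e-10, against 9.49e-11 in the OCAB list and 8.97e-11 in the Mi2 list.

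Where MTA2 was present, its peak had a median height of 18.0 (quartiles 13.1 and 22.8) at pairs leaning to AIOLOS, 13.1 (10.5 and 17.0) at pairs leaning to IKAROS and 19.7 (14.0 and 28.9) at balanced pairs. The medians of HDAC2 were 11.9 (11.0 and 13.7), 12.8 (11.0 and 15.6) and 16.5 in the same order. OCT2 heights had medians of 10.9 at the 5 pairs leaning to AIOLOS, 12.0 (9.27 and 15.3) at pairs leaning to IKAROS and 15.8 (12.0 and 22.9) at balanced pairs. The quartile ranges of the leaning groups overlapped for each of the 3 proteins.

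Every one of these proteins is found more often where IKAROS and AIOLOS peaks are high, and leaning pairs cannot be among the highest in both lists. The groups were therefore compared in 5 strata of equal size by the mean of the 2 ranks, which matched height only in part. In the lowest stratum the median mean rank was 26.7 in pairs leaning to IKAROS, 20.9 in balanced pairs and 28.3 in pairs leaning to AIOLOS. It was 58.2, 60.9 and 58.8 in the middle stratum and 70.8, 76.6 and 74.5 in the fourth. The top stratum held no leaning pair. In the middle stratum HDAC2 was found at 31.7% of 1351 pairs leaning to IKAROS (29.3 to 34.2), at 24.7% of balanced pairs (23.5 to 25.9) and at 4.65% of 86 pairs leaning to AIOLOS (1.82 to 11.4). OCT2 in that stratum was at 16.6% of pairs leaning to IKAROS and at 1 of the 86 leaning to AIOLOS, a difference of 15.4 points (9.95 to 17.7). MTA2 was at 59.1% of pairs leaning to IKAROS (56.4 to 61.7), 54.5% of balanced pairs (53.1 to 55.9) and 75.6% of pairs leaning to AIOLOS (65.5 to 83.4).

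In the lowest stratum, with 46 pairs leaning to AIOLOS, the difference was 3.39 points for HDAC2 (-8.32 to 8.87) and 2.54 points for OCT2 (-7.70 to 5.91), and neither could be told from 0. In the second stratum HDAC2 differed by 8.64 points (0.737 to 14.1), and no OCT2 peak was found at 106 pairs leaning to AIOLOS, which allows a share of up to 2.83%, against 10.7% at pairs leaning to IKAROS. In the fourth stratum HDAC2 differed by 32.2 points (14.1 to 43.4), with 30 pairs leaning to AIOLOS, and the interval for OCT2 included 0 (15.1 points, -0.619 to 23.7). The MTA2 difference was beyond counting error in the middle stratum alone (-16.5 points, -24.8 to -6.14). Its interval included 0 in the lowest (-1.03 points, -15.6 to 10.9), the second (3.23 points, -6.46 to 12.5) and the fourth (-10.4 points, -21.2 to 7.03). The strata were averaged with each weighted by its number of leaning pairs. The difference was then 11.95 points for HDAC2, 9.35 for OCT2 and -3.08 for MTA2. With ranks among the paired peaks alone, also in 5 strata, MTA2 turned to 8.14 points, while HDAC2 was at 17.0 and OCT2 at 12.6.

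The shares were then followed along the whole range of the rank difference, in 11653 pairs whose mean rank lay between 40 and 70. The HDAC2 share was higher in each bin than in the one before it, from the AIOLOS end to the IKAROS end. It was found at 5.80% of pairs with a difference below -35 points (2.28 to 14.0, n = 69), 13.8% between -25 and -15 (10.2 to 18.6), 21.1% within 5 points of 0 (19.2 to 23.2, n = 1647), 26.2% between 15 and 25 (24.6 to 27.8) and 29.5% above 35 (26.8 to 32.4, n = 1013). OCT2 had the same order of shares, from 0 of 69 pairs at the AIOLOS end, which allows a share of up to 4.35%, through 9.35% within 5 points of 0 (8.04 to 10.9) to 14.7% at the IKAROS end (12.7 to 17.0). Intervals of neighbouring bins overlapped along the whole range for OCT2. For HDAC2 they overlapped as well, except between the bin from 5 to 15 points and the bin from 15 to 25.

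MTA2 had its lowest shares near balance and higher shares at both ends of this range. It was found at 48.0% of pairs within 5 points of 0 (45.6 to 50.4), 69.6% below -35 points (57.9 to 79.2) and 57.1% above 35 points (54.0 to 60.1). Against pairs within 5 points of 0, the pairs below -25 held 15.4 points more (7.41 to 22.8) and the pairs above 25 held 5.93 points more (2.93 to 8.91). HDAC2 parted from MTA2 at the AIOLOS end, where it was 12.0 points lower than within 5 points of 0 (-16.1 to -6.26), and not at the IKAROS end, where it was 6.75 points higher (4.18 to 9.24). Mi2 shares lay between 5.26% and 10.4% and OCAB shares between 3.20% and 6.92% over the 9 bins, with no steady order over the whole range. From the bin of -15 to -5 points upward, each Mi2 share was higher than the one before, from 5.39% to 10.4%. Intervals of neighbouring bins overlapped there, and the bins below held Mi2 at 7.25%, 5.26% and 8.46%. The median mean rank was 52.7 in the lowest bin, 57.6 within 5 points of 0 and 48.2 in the highest, so the bins were not fully matched in height.

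**Figure D3:**
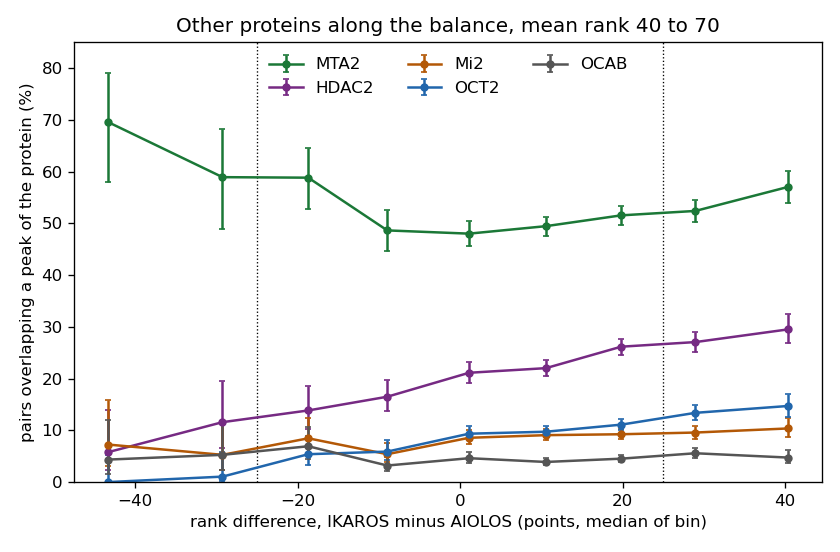
Share of pairs (y, %) that overlap a peak of each protein, by the rank difference of the pair (x, IKAROS minus AIOLOS, median of each of 9 bins, in points), for pairs of mean rank 40 to 70; bars are Wilson 95% intervals and dotted lines mark -25 and 25 points. HDAC2 goes from 5.80% to 29.5% and OCT2 from 0 to 14.7%, while MTA2 is lowest near 0 (48.0%).

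The shares were also read at a fixed height of 1 factor, with the overlap taken from that factor's own peak. Here the group follows from the rank of the other factor, so the height of the pair as a whole was not matched. Among AIOLOS peaks ranked from 50 to 80 in their list, HDAC2 was found at 41.4% of 338 peaks whose pair leaned to IKAROS (36.3 to 46.7), 32.2% of 10002 in balanced pairs (31.2 to 33.1), 10.3% of 174 in pairs leaning to AIOLOS (6.64 to 15.8) and 11.6% of 1075 AIOLOS peaks with no IKAROS peak (9.85 to 13.7). OCT2 lay at 22.5% (18.4 to 27.2), 16.0% (15.3 to 16.8), 0.575% (0.102 to 3.18) and 6.33% (5.02 to 7.94) of the same sets. MTA2 lay at 72.8% (67.8 to 77.3), 62.9% (61.9 to 63.8), 53.4% (46.0 to 60.7) and 38.4% (35.6 to 41.4). At a given AIOLOS height, all 3 proteins were thus rarer at pairs leaning to AIOLOS than at balanced pairs. The median AIOLOS rank was 65.1 in both of these sets and 53.0 in pairs leaning to IKAROS.

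At a fixed height of IKAROS the order for MTA2 turned around. Pairs leaning to AIOLOS are by construction those with the lower IKAROS peaks in the first reading and those with the higher AIOLOS peaks in this one. In balanced pairs MTA2 shares went with height, from 22.8% in the lowest stratum of mean rank to 90.1% in the top one. Whether height accounts for the turn was not tested. Among IKAROS peaks ranked from 50 to 80, MTA2 was found at 85.3% of 34 peaks in pairs leaning to AIOLOS (69.9 to 93.6), 54.8% of 9467 in balanced pairs (53.8 to 55.8), 49.2% of 3991 in pairs leaning to IKAROS (47.6 to 50.7) and 28.4% of 2696 IKAROS peaks with no AIOLOS peak (26.7 to 30.1). HDAC2 was found at 2 of the 34 (5.88%, 1.63 to 19.1), 25.4% (24.5 to 26.3), 23.8% (22.5 to 25.1) and 15.0% (13.7 to 16.4). OCT2 was found at 2 of the 34 as well (5.88%, 1.63 to 19.1), and at 11.3% (10.6 to 11.9), 11.7% (10.8 to 12.8) and 5.90% (5.07 to 6.85) of the others. With 34 peaks, its share could not be told from that of any other set. For HDAC2 and OCT2, pairs leaning to AIOLOS held the lowest share or one that could not be told from it under either matching.

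Peak centres offered a readout of position. IKAROS and AIOLOS centres lay a median of 31 bp apart in balanced pairs (quartiles 14 and 59), 40 bp apart in pairs leaning to IKAROS (18 and 73) and 50.5 bp apart in pairs leaning to AIOLOS (18 and 101). Centres more than 100 bp apart made up 9.50% of balanced pairs (9.15 to 9.86), 14.0% of pairs leaning to IKAROS (13.1 to 14.9) and 25.4% of pairs leaning to AIOLOS (20.5 to 30.9). About the same share of either leaning group had centres within 20 bp of each other, 28.2% (27.1 to 29.4) and 28.4% (23.3 to 34.0), against 36.2% of balanced pairs (35.7 to 36.8).

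Where the centres were at least 40 bp apart, the MTA2 centre tended to lie by the higher of the peaks. It was nearer to the AIOLOS centre in 63.3% of 90 pairs leaning to AIOLOS (53.0 to 72.6), in 47.0% of 5837 balanced pairs (45.7 to 48.3) and in 41.2% of 1404 pairs leaning to IKAROS (38.6 to 43.8). The median distance from the MTA2 centre in pairs leaning to AIOLOS was 50.5 bp to AIOLOS and 84.5 bp to IKAROS. HDAC2 centres lay nearer to AIOLOS in 42.8% of 671 pairs leaning to IKAROS (39.1 to 46.5), 40.8% of 3196 balanced pairs (39.1 to 42.5) and 7 of 21 pairs leaning to AIOLOS (17.2 to 54.6%). With only 21 such pairs, no turn like that of MTA2 was detectable.

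Focus, as deposited, is the fraction of a peak's tags on the sides of its centre expected for a single bound site, and comes from the libraries that set the groups. In pairs leaning to AIOLOS the median focus was 0.833 for the AIOLOS peak (quartiles 0.774 and 0.880) and 0.732 for the IKAROS peak (0.667 and 0.792). In pairs leaning to IKAROS the values came close, with 0.774 for AIOLOS (0.700 and 0.844) and 0.783 for IKAROS (0.727 and 0.833). Balanced pairs had 0.802 and 0.778. The AIOLOS peak was the more focused of the pair at 85.1% of pairs leaning to AIOLOS (80.3 to 88.8), 61.5% of balanced pairs (60.9 to 62.1) and 46.3% of pairs leaning to IKAROS (45.0 to 47.6). The input signal under the IKAROS peaks had a median of 3 tags in both leaning groups and 4 in balanced pairs, and that under the AIOLOS peaks 2.3 in both and 3. Between the leaning groups, fold over the surrounding region followed height. Its medians were 7.10 for IKAROS and 19.0 for AIOLOS in pairs leaning to AIOLOS, and 14.5 and 10.4 in pairs leaning to IKAROS. Balanced pairs had 14.1 and 15.5, so their IKAROS peaks, though higher, had no higher fold than those of pairs leaning to IKAROS.

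**Figure D4:**
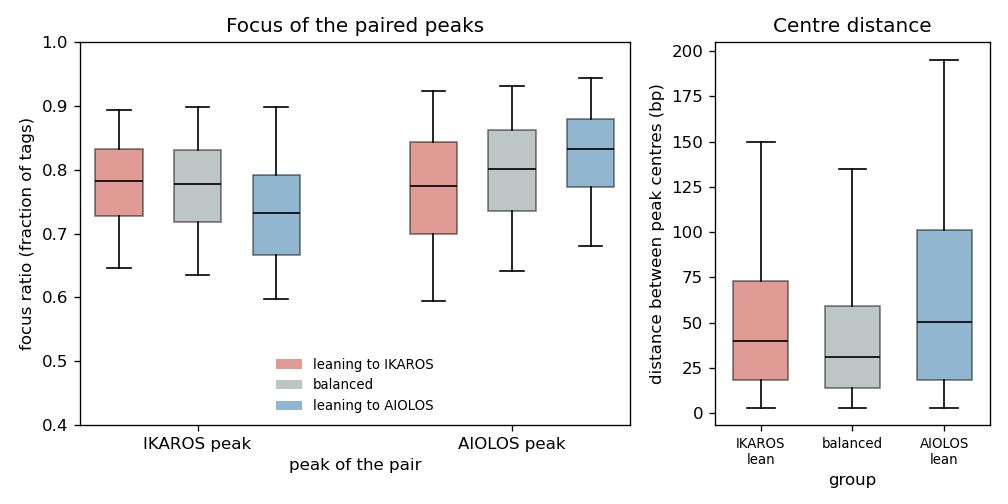
Left, focus ratio (fraction of tags) of the IKAROS and the AIOLOS peak in the 3 groups of pairs; right, distance between the peak centres (bp). Boxes show quartiles and the median, and whiskers the 5th and 95th percentiles over pairs; the IKAROS peak of pairs leaning to AIOLOS has the lowest median focus (0.732), and these pairs have the widest centre distances (median 50.5 bp).

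Leaning pairs were spread over the genome. Coordinates are on build hg19 as deposited. The share of pairs leaning to IKAROS ran from 15.6% on chromosome 19 (13.9 to 17.5) to 23.1% on chromosome X (20.1 to 26.4). Pairs leaning to AIOLOS made up between 0.283% of the pairs on chromosome 18 (2 pairs) and 1.26% on chromosome 20 (13 pairs), with overlapping intervals. They fell in 247 of the 2577 windows of 1 Mb that held a pair, never more than 3 to a window, and 3 were found on chromosome 19 from 1000001 to 2000000 and on chromosome 7 from 1000001 to 2000000. Pairs leaning to IKAROS reached 14 of the 51 pairs between 23000001 and 24000000 on chromosome 22.

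A pair leaning to IKAROS was followed along the chromosome by another in 20.3% of cases (19.3 to 21.4), against 18.2% of all pairs. Within 5000 bp the share was 23.6% (20.8 to 26.7, n = 800). For pairs leaning to AIOLOS it was 1.49% (0.582 to 3.77), or 4 of 268, against 0.819% of all pairs, so no clustering was detectable. Another pair lay within 5000 bp of 25.4% of pairs leaning to IKAROS (24.3 to 26.5), 25.4% of pairs leaning to AIOLOS (20.5 to 30.9) and 29.9% of balanced pairs (29.4 to 30.5).

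The sites with the largest lean are given one by one, as the extremes of these classes and not as typical members. The largest lean to AIOLOS lay on chromosome 19, 56632656 to 56632942, where the AIOLOS height was 89.6 and the IKAROS height 13.7. This is an IKAROS to AIOLOS ratio of 0.153 (exact interval of the tags 0.101 to 0.225) and a rank difference of -63.6 points, and an MTA2 peak of height 14.4 was the only other one present. On chromosome 16, 69364474 to 69364746, the AIOLOS height was 48.6 and the IKAROS height 11.1, again with MTA2 alone (height 9.63). The IKAROS and AIOLOS centres of the 2 sites lay 22 and 7 bp apart.

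On chromosome 8, 145980888 to 145981163, heights of 43.0 for AIOLOS and 10.7 for IKAROS stood without any other protein. On chromosome 3, 119041803 to 119042121, heights of 62.2 and 13.3 were joined by MTA2 (13.6) and Mi2 (13.0). Next, the site on chromosome 16 from 28835310 to 28835673, had heights of 62.9 and 13.7 and the highest MTA2 peak of the 6 (42.9). The last, on chromosome 17 from 30771310 to 30771609, had 102.1 and 15.8 with an MTA2 height of 19.3 and the sharpest AIOLOS focus of the 6 (0.977). MTA2 was thus present at 5 of the 6 sites and HDAC2, OCT2 and OCAB at none. Over all 268 pairs leaning to AIOLOS the shares were 57.1%, 9.70%, 1.87% and 4.10%, in the same order.

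The largest lean to IKAROS lay on chromosome 22, 44422857 to 44423168, where IKAROS stood at 42.3 and AIOLOS at 11.2, a ratio of 3.78 (2.27 to 6.64) and a rank difference of 71.0 points, with MTA2 at a height of 13.6. On chromosome 10, 75403841 to 75404151, heights of 41.9 and 11.2 were joined by HDAC2 (11.9) and Mi2 (14.6) without MTA2. On chromosome 4, 79467083 to 79467421, heights of 32.9 and 8.09 were joined by MTA2 (14.0) and HDAC2 (10.1). These AIOLOS peaks rested on 18, 18 and 13 tags.

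The next site, on chromosome 6 from 13099063 to 13099400, had heights of 45.3 and 12.4 and held MTA2 (34.6), HDAC2 (15.6) and OCT2 (25.6). The fifth, on chromosome 8 from 8678374 to 8678710, had 38.5 and 11.2 with MTA2 alone (11.4). On chromosome 6, 52374178 to 52374463, heights of 31.6 and 8.71 came with MTA2 (14.0) and HDAC2 (9.16). MTA2 was present at 5 of these 6 sites and HDAC2 at 4, against 45.8% and 21.6% of all pairs leaning to IKAROS. The balanced pairs with the highest ranks stood far above, with IKAROS heights between 1168.9 and 2783.8 and AIOLOS heights between 1043.3 and 3149.2. All 6 of them held MTA2 and HDAC2 and 5 held Mi2, among them chromosome 11, 76155742 to 76156014 (heights 1550.8 and 1681.4, centres 0 bp apart), and chromosome 19, 44669049 to 44669322 (1168.9 and 1043.3). Over all balanced pairs these proteins were at 59.4%, 33.8% and 13.1%.

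**Figure D5:**
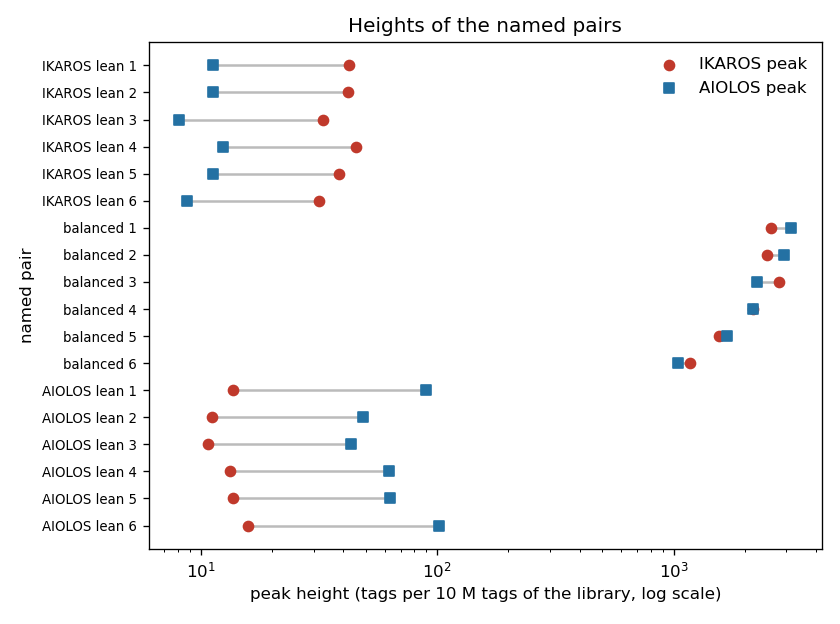
Heights of the IKAROS peak (circles) and the AIOLOS peak (squares), in tags per 10 M tags on a log axis, at the 6 pairs with the largest lean to IKAROS, the 6 highest balanced pairs and the 6 with the largest lean to AIOLOS, in the order of the rule. At the 6 pairs leaning to AIOLOS the AIOLOS height ranged from 43.0 to 102.1 and the IKAROS height from 10.7 to 15.8; at the 6 leaning to IKAROS the IKAROS height ranged from 31.6 to 45.3 and the AIOLOS height from 8.09 to 12.4.

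The limit of 25 points divides a continuous range. Just inside it, 6 pairs shared heights of 30.8 for IKAROS and 20.5 for AIOLOS (difference 25.1 points), and just outside, 17 pairs shared heights of 27.8 and 19.3 (difference 24.996 points). On the other side, a pair on chromosome 19, 44288471 to 44288789, lay inside with heights of 18.8 and 36.7 (-25.1 points). A pair on chromosome 1, 1107046 to 1107447, lay outside with 24.0 and 51.0 (-24.9 points), as did one on chromosome 11, 62380299 to 62380575, with 35.5 and 133.2 (also -24.9 points). At these few named pairs, heights were thus close on the IKAROS side, where pairs tied, and wide apart on the AIOLOS side. At the 6 pairs just inside it on the IKAROS side the exact interval of the height ratio, 0.980 to 2.34, included 1. A ratio of 1 is equal height and not equal rank, as the median height was 20.5 in the IKAROS list and 23.7 in the AIOLOS list.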

How the data were processed

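HOMER 4.9.1, Bowtie2 2.3.2.2 and CASAVA (1.4 for the HDAC2 library and 1.8.2 for the rest) are listed, with build hg19, per the submitters' processing notes. The authors deposited 1 HOMER peak list per antibody. Calling limits are given by the file header for HDAC2 alone (4-fold over input, Poisson limit 0.0001) and no source used here states them for the other lists. Deposited columns used were the signal (tags per 10 M tags), the scaled input signal, the focus fraction, fold ratios over input and surroundings, and p-values over input. The deposited score and tag counts were not used. Tags behind a height, and library depth, were recovered from the steps of the heights.

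Overlaps of at least 1 bp made pairs, and no overlap held more than 1 peak of either list. Another protein was present where its peak overlapped the span of the pair. Wilson, Newcombe and exact binomial 95% intervals were used. No p-value was computed, since each antibody had 1 library. The members, lists and bands were chosen with earlier results of these data known. Named pairs are the 6 with the largest rank difference each way and the 6 highest balanced pairs within 5 points, on chromosomes 1 to 22 and X, and those next to the limits. The gene table at hand is on GRCh38, so gene names, gene lists, promoters and sequence motifs were not analysed here. The code was tested on simulated peaks and returned all 7 simulated quantities. Python 3.11.15, numpy 2.4.6, pandas 2.3.3, scipy 1.17.1 and matplotlib 3.10.9 were used.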

Additional observations from a re-analysis of the deposited data

How the results depend on the processing

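Counts of leaning pairs followed the settings. Pairs leaning to IKAROS and to AIOLOS numbered 1294 and 64 at a limit of 40 points, 1109 and 1471 with ranks among paired peaks alone, and 1524 and 165 with at least 30 tags in each peak. There were 3256 leaning to IKAROS at a p-value over input of at most 1e-20, and 1506 leaning to AIOLOS with ranks of fold over input. These fall by construction at 40 points, where pairs move to the balanced group, and at 30 tags, where pairs are left out. Differences in share are given as IKAROS minus AIOLOS leaning, in points. For MTA2 the difference reversed to 4.85 with ranks among paired peaks, 10.7 with ranks of fold over input and 8.14 with ranks among paired peaks in 5 strata (added after the data were seen), and it was -22.96 at 40 points and -3.08 in 5 strata by mean rank; the cause was not tested. HDAC2 differed by 15.4 with ranks among paired peaks, 17.0 in their strata, 23.1 at 30 tags and 1.67 at the stricter p-value, which was asked of the HDAC2 peaks too. OCT2 differed by 11.8, 12.6, 14.9 and 4.50 under the same settings. Mi2 differed by 5.44 at 30 tags and 5.16 in the strata of paired ranks. HDAC2, OCT2 and Mi2 kept their direction under every setting run. The Mi2 interval included 0 as reported, at 40 points, with peak centres within 100 bp and at the stricter p-value. No paired analysis was possible because each antibody had 1 library. Depth limits single pairs, with a median of 24 AIOLOS tags in pairs leaning to IKAROS and 32 IKAROS tags in pairs leaning to AIOLOS.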

Other observations

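On sequences of hg19 outside chromosomes 1 to 22 and X, 46 pairs were found, of which 9 leaned to IKAROS and 0 to AIOLOS. The highest peaks of both factors lay on an unlocalised sequence of chromosome 17, where IKAROS reached 4438.5 and AIOLOS 4889.7 tags per 10 M tags. Without these sequences, a check added after the data were seen, 5932 pairs leaned to IKAROS and 268 to AIOLOS. Among pairs that held HDAC2, MTA2 was present at 73.1% of the 26 leaning to AIOLOS (Wilson 95% interval 53.9 to 86.3), 70.9% of the 1282 leaning to IKAROS (68.4 to 73.3) and 85.4% of 8963 balanced pairs (84.6 to 86.1).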
